A study of Mus musculus with 8 samples.

Results

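The genes described here encode the 8 subunits of the chaperonin CCT, also called TRiC: Tcp1, Cct2, Cct3, Cct4, Cct5, Cct6a, Cct7 and Cct8. They were chosen by name, by a rule that used no measured value, although earlier results of these data were known. They are 8 of the 49997 genes in the count table. The mean count over the libraries reached 10 for all 8, the minimum for testing, which 6901 genes passed.

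CCT is a cytosolic machine made of a pair of stacked rings, and each ring holds every subunit at a fixed place, so that the subunits are needed in equal numbers. It encloses newly made proteins and folds them with the energy of ATP. Actin and tubulin are its best known clients, and tumour cells, which divide often, depend on it for the cytoskeleton and for cell cycle regulators such as Cdc20. The subunits Tcp1, Cct4, Cct2 and Cct5 lie side by side in the ring and bind ATP more tightly than Cct7, Cct8, Cct6a and Cct3 on the other side.

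RNA was sequenced from EO771 cells, a mouse breast cancer line, in 8 libraries that form 4 groups of 2. The vehicle cells received 2% DMSO in saline and the 12-HETE cells received 100 nM of this arachidonic acid metabolite, both for 48 h. The vector cells were transduced with an empty vector, and the ADAR1 p150 cells with a vector for overexpression of the interferon-induced isoform of the RNA editing enzyme ADAR1, on top of the cells' own Adar gene. The vector's promoter, the time after transduction and whether the transduced cells were a clone or a pool are not given in the sources used here. Vehicle and 12-HETE libraries carry the replicate numbers 4 and 5, and vector and ADAR1 p150 libraries the numbers 1 and 2. The legend of the editing analysis of the same 4 groups calls their replicates independent experiments, while the sample labels give only replicate numbers, and the tests measure the spread between these libraries.

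The libraries held between 1101767 and 1537037 counts, of which 44.4% to 50.3% fell on the single RNA AY036118, and each treated library was deeper than each control library. Adar had counts of 5 and 5 in the vehicle libraries, 7 and 6 in 12-HETE, 2 and 8 in vector and 181 and 140 in ADAR1 p150, as the labels say. The line was checked for its epithelial identity, and the summed level of 7 epithelial markers lay between 174 and 316 CPM. Nearly all of it came from the keratins Krt8, Krt18, Krt19 and Krt7, each counted in every library. Epcam had 1 to 4 counts in a library, Cldn4 had 0 to 4, and Cdh1 was at 0. The summed levels of immune, endothelial and fibroblast markers lay between 9.8 and 31.4, 0.653 and 8.87, and 8.71 and 41.9 CPM. Among the immune markers Ptprc, which defines leukocytes, had at most 1 count in a library, Cd68 had 10 to 26 and Cd79a 2 to 12. Most of the fibroblast level was Dcn, with 8 to 57 counts in a library, while Col1a2 and Lum were at 0. Among the endothelial markers Cdh5 had counts of 9 and 7 in vehicle, 0 and 0 in 12-HETE, 4 and 7 in vector and 1 and 2 in ADAR1 p150. The part of other cells in the results was not tested.

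Upstream stretches of Cct3, Cct7 and Cct8 are shown because 6 of the 8 subunit genes start close to a gene on the other strand. The Cct3 and Cct8 stretches fill the gap to that neighbour, and the Cct7 stretch lies in an intron of Pradc1, whose first exon overlaps that of Cct7. Capitals mark the CCAAT box (CCAAT, or ATTGG on the other strand), the GC box (GGGCGG or CCGCCC) and the ETS site (CCGGAAG or CTTCCGG). All are read 5′ to 3′ along the subunit's strand, from GRCm38.p6. The Cct3 stretch is chr3:88297000-88297115 on the plus strand, that of Cct7 is chr6:85451284-85451504 on the plus strand, and that of Cct8 is chr16:87495874-87495998 on the minus strand.
Cct3: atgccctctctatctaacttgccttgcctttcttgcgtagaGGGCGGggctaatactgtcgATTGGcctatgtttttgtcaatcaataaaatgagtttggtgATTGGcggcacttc
Cct7: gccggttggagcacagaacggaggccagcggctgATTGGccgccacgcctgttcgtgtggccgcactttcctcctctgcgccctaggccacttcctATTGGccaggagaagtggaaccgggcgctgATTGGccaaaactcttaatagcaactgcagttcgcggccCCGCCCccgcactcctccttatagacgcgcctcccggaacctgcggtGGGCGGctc
Cct8: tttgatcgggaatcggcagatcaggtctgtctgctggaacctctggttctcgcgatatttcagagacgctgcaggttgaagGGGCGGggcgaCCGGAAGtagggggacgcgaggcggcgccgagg
In RefSeq promoter windows of 250 bases, which were at hand for 7 subunits (all but Cct4), the GC box was found in 7 of 7, against 32.7% of 32851 windows. The CCAAT box was found in 4 of 7 (Tcp1, Cct3, Cct6a and Cct7), against 33.8% of windows. The ETS site was found in 2 of 7 (Cct2 and Cct8), against 6.91%. The letters of a heat shock element, which heat shock factor 1 binds, were found as GAANNTTC in Cct2 alone and as TTCNNGAA in Cct5 alone, against 6.69% and 7.17% of windows. Motifs were searched on both strands, and a match describes letters, not a bound site. A neighbour that starts within 1000 bases on the other strand was annotated for 6 of the 8 subunits, at 644 bases for Mrpl18 and Tcp1, 117 for Tsacc and Cct3, 48 for Fam173b and Cct5, 451 for Psph and Cct6a, 456 for Pradc1 and Cct7, and 126 for B130034C11Rik and Cct8.

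Summed over the 8 subunits, counts were 446 and 602 in the vehicle libraries, 798 and 581 in 12-HETE, 257 and 386 in vector and 454 and 303 in ADAR1 p150. In normalised CPM, which are counts scaled to a common TMM-adjusted library total, the sums averaged 440.6 ± 83.2 in vehicle, 507 ± 87.9 in 12-HETE, 286 ± 72.6 in vector and 274 ± 63.9 in ADAR1 p150 (SD, n = 2 each). The vehicle and 12-HETE libraries overlapped, as did the vector and ADAR1 p150 libraries, and the 4 libraries of the transduced cells were all below the 4 of the other experiment. In these bulk samples, fewer cells of a kind and less RNA per cell cannot be told apart.

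Levels per length, in CPM per kb of all annotated exons, were highest for Cct5 in each of the 4 groups. Cct5 reached 57.8 ± 10.8 in vehicle, 69.4 ± 20.7 in 12-HETE, 32.5 ± 7.21 in vector and 31.6 ± 6.41 in ADAR1 p150 (SD, n = 2 each). With vehicle it was followed by Cct8 at 17.0 CPM per kb, Cct2 at 11.7, Cct4 at 10.1, Cct6a at 9.99, Cct7 at 8.31, Cct3 at 6.34 and Tcp1 at 4.58. Cct5 and Cct8 had separate ranges from all the others. Cct2, Cct4 and Cct6a overlapped, as did Cct7 with Cct2 and with Cct6a, and Cct3 with Tcp1. Divided by the longest transcript instead, Cct5 stayed first at 86.2 and Tcp1 last at 9.41, but Cct7 moved to the second place at 23.1, ahead of Cct8 at 22.0 and Cct3 at 20.4 CPM per kb. The order between the first and the last subunit therefore depended on the length used.

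Tcp1, the alpha subunit (chr17:12915701-12925067, plus strand), stood at 13.7 and 32.4 normalised CPM in the vehicle libraries, 45.6 and 26.04 in 12-HETE, 11.9 and 24.5 in vector and 29.6 and 18.1 in ADAR1 p150. Replicates of each group were far apart and both treated groups overlapped their controls. Cct4, the delta subunit (chr11:22990519-23003780, plus strand), stood at 41.1 and 44.0 CPM in the vehicle libraries, 42.1 and 31.4 in 12-HETE, 16.4 and 34.95 in vector and 30.9 and 18.9 in ADAR1 p150. Both vehicle libraries lay above both vector libraries, and the treated groups again overlapped their controls.

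Cct2, the beta subunit (chr10:117051001-117063814, minus strand), stood at 23.1 and 36.5 CPM in the vehicle libraries, 36.4 and 20.7 in 12-HETE, 12.8 and 29.7 in vector and 22.5 and 11.3 in ADAR1 p150. No pair of groups that was compared separated. Cct5, the epsilon subunit (chr15:31590800-31601804, minus strand), had by far the most counts, between 83 and 326 in a library. It stood at 139 and 181 CPM in the vehicle libraries, 233 and 152 in 12-HETE, 75.8 and 104 in vector and 99.9 and 74.8 in ADAR1 p150. The highest Cct5 level among the 4 transduced libraries was below the lowest of the other 4.

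Cct7, the eta subunit (chr6:85451514-85468475, plus strand), stood at 47.9 and 64.7 CPM in the vehicle libraries, 69.2 and 55.9 in 12-HETE, 40.2 and 45.4 in vector and 42.9 and 28.0 in ADAR1 p150. Its vector libraries lay below its vehicle libraries, and neither treatment separated from its control. Cct8, the theta subunit (chr16:87483326-87495873, minus strand), stood at 49.7 and 55.6 CPM in the vehicle libraries, 62.1 and 75.05 in 12-HETE, 42.9 and 37.6 in vector and 65.4 and 49.9 in ADAR1 p150. Cct8 was the only subunit whose libraries were higher than both controls with each treatment.

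Cct6a, the zeta subunit (chr5:129786998-129846371, plus strand), stood at 30.8 and 41.5 CPM in the vehicle libraries, 37.8 and 38.3 in 12-HETE, 12.8 and 31.5 in vector and 11.3 and 9.07 in ADAR1 p150. Both ADAR1 p150 libraries were below both vector libraries, but the vector libraries were themselves far apart, and the lower of them was close to the ADAR1 p150 libraries. Cct3, the gamma subunit (chr3:88297116-88321767, plus strand), stood at 36.8 and 44.0 CPM in the vehicle libraries, 43.5 and 46.0 in 12-HETE, 21.9 and 29.7 in vector and 16.9 and 18.9 in ADAR1 p150. Cct3 was below the range of vector in both ADAR1 p150 libraries, and its replicates were closer in every group than those of Tcp1 or Cct2.

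**Figure D1:**
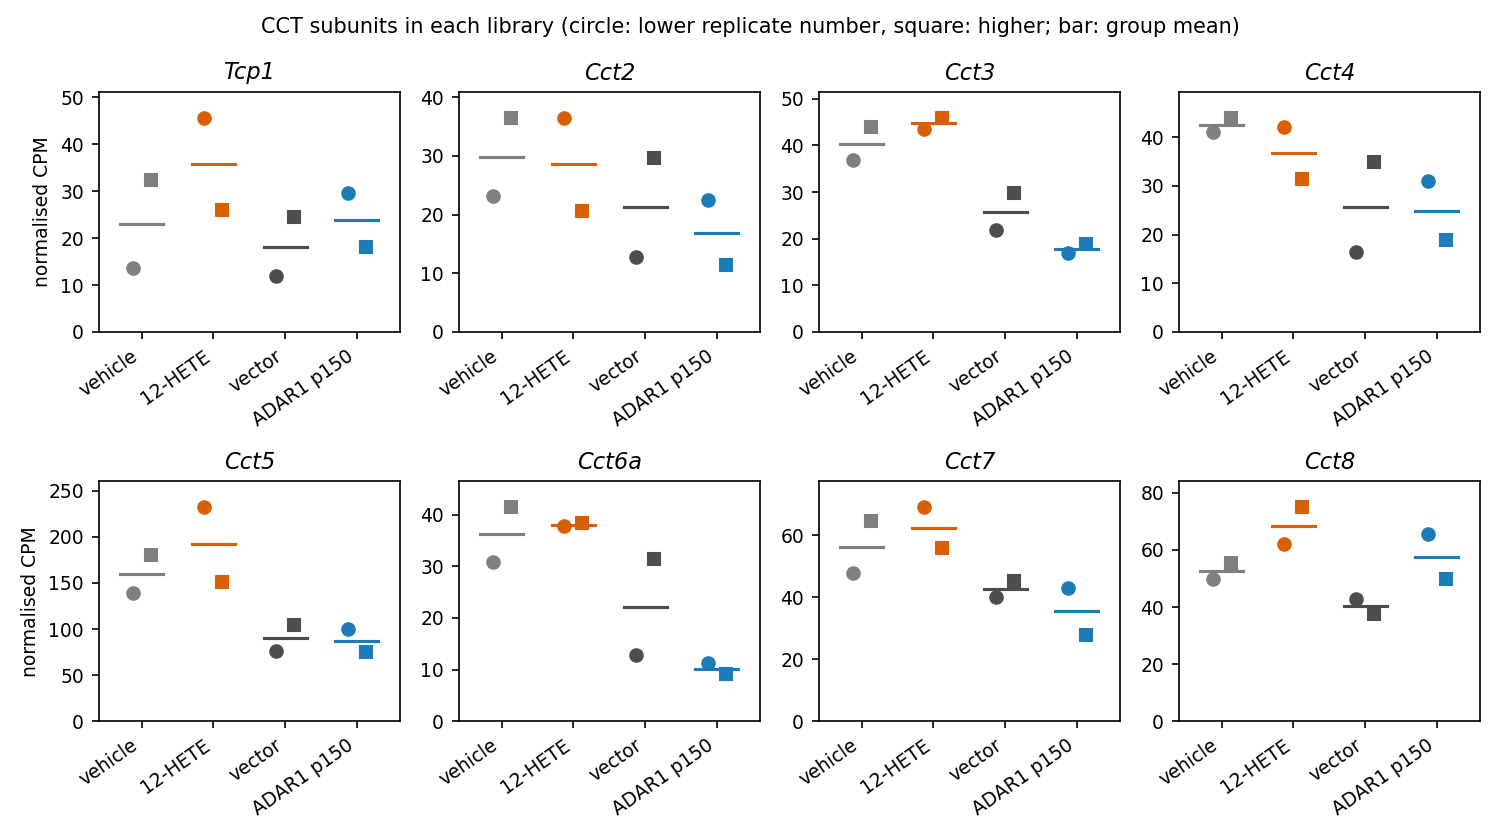
Normalised CPM (vertical axes, from 0) of each CCT subunit in the 8 libraries, by group, with circles for the lower and squares for the higher replicate number and bars for the group means. Cct6a lies at 11.3 and 9.07 CPM with ADAR1 p150, below all other libraries, and Cct5 has the highest CPM of the subunits in every group.

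The study sequenced 12-HETE-treated cells to look into immune evasion, and reported RNA editing and interferon genes. The first comparison here set subunit levels with 12-HETE against those with vehicle. No CCT subunit passed the threshold with 12-HETE: 0 of 8 passed edgeR's quasi-likelihood test at a Benjamini-Hochberg adjusted p of 0.05, where 29.3% of all genes tested passed. Also, 0 of 8 had an unadjusted p under 0.05 or passed with DESeq2. At an added 2-fold threshold the counts were 0 of 8 and 14.4%. The groups did not overlap for 1 of the 8 (Cct8), against 64.1% of all genes. The median log2 fold change of the 8 was 0.15, beside 0.0044 over all genes tested, and it was -0.016 without vehicle replicate 4.

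The fitted changes with 12-HETE had intervals that leave room for changes in both directions. Tcp1 had the highest log2 fold change, 0.64 (95% interval -0.036 to 1.31), with an adjusted p of 0.151 in edgeR's quasi-likelihood test. Cct8 followed with 0.38 (-0.020 to 0.77) and an edgeR adjusted p of 0.150. Cct5, the subunit with the most counts, had 0.27 (-0.063 to 0.60) and an edgeR adjusted p of 0.227. The other 5 lay between -0.21 for Cct4 and 0.15 for Cct7, and the upper bounds of their intervals did not exceed 0.62. A doubling by 12-HETE thus lay outside the 95% intervals of 7 subunits and inside that of Tcp1. Leaving out a library gave a call for Tcp1 without vehicle replicate 5 (1.32, edgeR adjusted p = 0.018) and for Cct5 without 12-HETE replicate 5 (0.55, edgeR adjusted p = 0.0247).

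The second comparison asked what overexpression of ADAR1 p150 alone did. With ADAR1 p150, Cct6a was called lower and no other subunit passed. Cct6a had a log2 fold change of -1.12 (95% interval -1.88 to -0.36), which is 2.17-fold lower than with vector, and an adjusted p of 0.025 in edgeR's quasi-likelihood test. The count was 1 of 8, against 25.6% of all genes tested in either direction and 11.1% in the lower direction. With the 2-fold threshold it was also 1 of 8, against 12.8%. A count of 1 of 8 is near the shares of 11.1% and 12.8%. Groups did not overlap for 3 of 8 (Cct3, Cct6a and Cct8), against 60% of all genes. The median log2 fold change of the 8 was -0.15, beside 0.066 over all genes tested. Its direction turned on vector replicate 2, without which it was 0.263.

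The Cct6a call rested on few counts, 14 and 36 in vector against 16 and 12 in ADAR1 p150, and on vector replicate 2. Without that library the log2 fold change was -0.37 and the edgeR adjusted p 0.687, and without vector replicate 1 they were -1.62 and 0.00163. The edgeR adjusted p was 0.0592 without ADAR1 p150 replicate 1 (log2 fold change -1.27) and 0.135 without ADAR1 p150 replicate 2 (-0.97). With DESeq2 the log2 fold change was -1.18 and the adjusted p 0.108.

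Among the subunits that did not pass, Cct8 had the highest log2 fold change with ADAR1 p150, 0.52 (95% interval 0.092 to 0.96), with an edgeR adjusted p of 0.0671. Without ADAR1 p150 replicate 2 it was 0.71, with an edgeR adjusted p of 0.0274. Tcp1 had 0.39 (-0.37 to 1.15) and Cct3 -0.53 (-1.12 to 0.052), with edgeR adjusted p-values of 0.493 and 0.181. Cct4 and Cct5 were both at -0.04, Cct7 at -0.27 and Cct2 at -0.32. For Cct5 the interval of -0.44 to 0.36 was the narrowest of the 8.

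**Figure D2:**
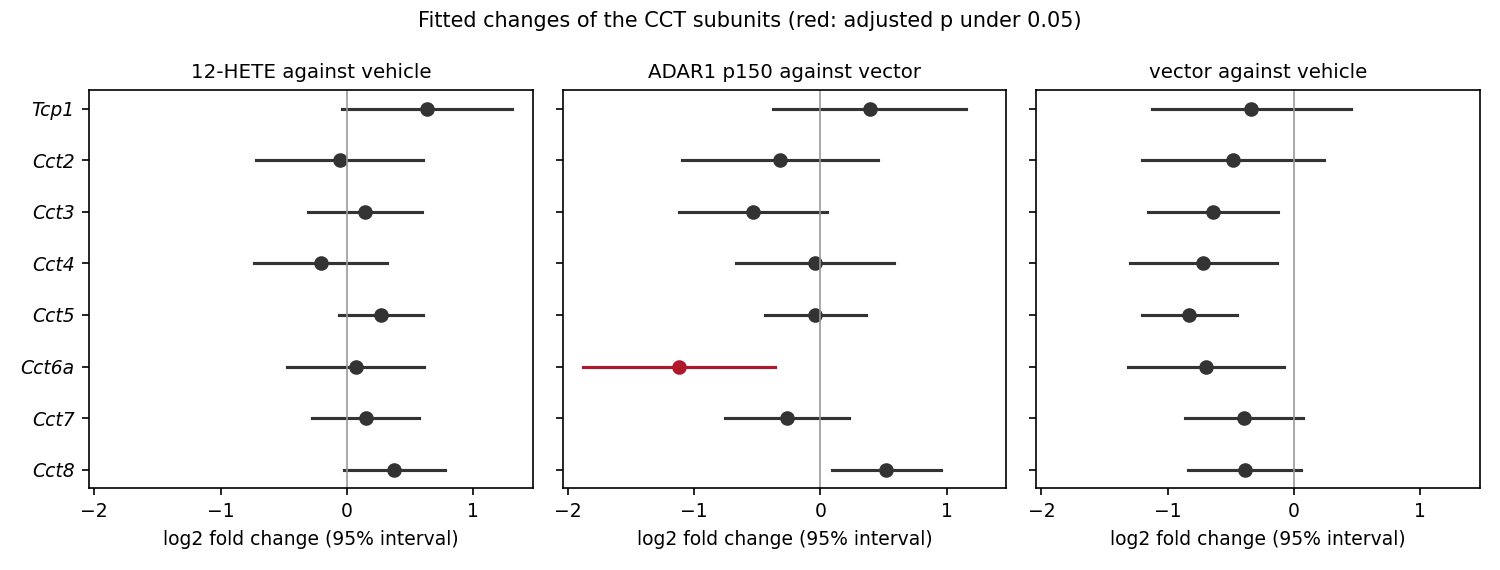
Fitted log2 fold change (horizontal axes) of each CCT subunit in 3 contrasts, with points for the estimates and bars for 95% intervals, red where the edgeR adjusted p is under 0.05. Only Cct6a with ADAR1 p150, at -1.12, is red, and all 8 estimates of vector against vehicle lie below 0.

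Each subunit's share of the summed CCT count compares the subunits within a library and does not depend on the total of that library. Cct6a made up 8.07% and 8.31% of the CCT counts in the vehicle libraries, 6.64% and 8.61% in 12-HETE, 5.45% and 9.33% in vector and 3.52% and 3.96% in ADAR1 p150. The exact binomial 95% intervals of the ADAR1 p150 libraries were 2.03% to 5.66% and 2.06% to 6.82%, and that of vector replicate 1, 3.01% to 8.97%, overlapped both. Cct8 made up 13% and 11.1% in the vehicle libraries, 10.9% and 16.9% in 12-HETE, 18.3% and 11.1% in vector and 20.5% and 21.8% in ADAR1 p150. The highest shares of Cct8 and the lowest of Cct6a were thus in the ADAR1 p150 libraries, although the Cct8 interval of vector replicate 1, 13.8% to 23.6%, contained both of those shares. Cct5 made up 30.8% to 40.9% of the CCT counts in every library. Intervals on shares cover counting error only.

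**Figure D3:**
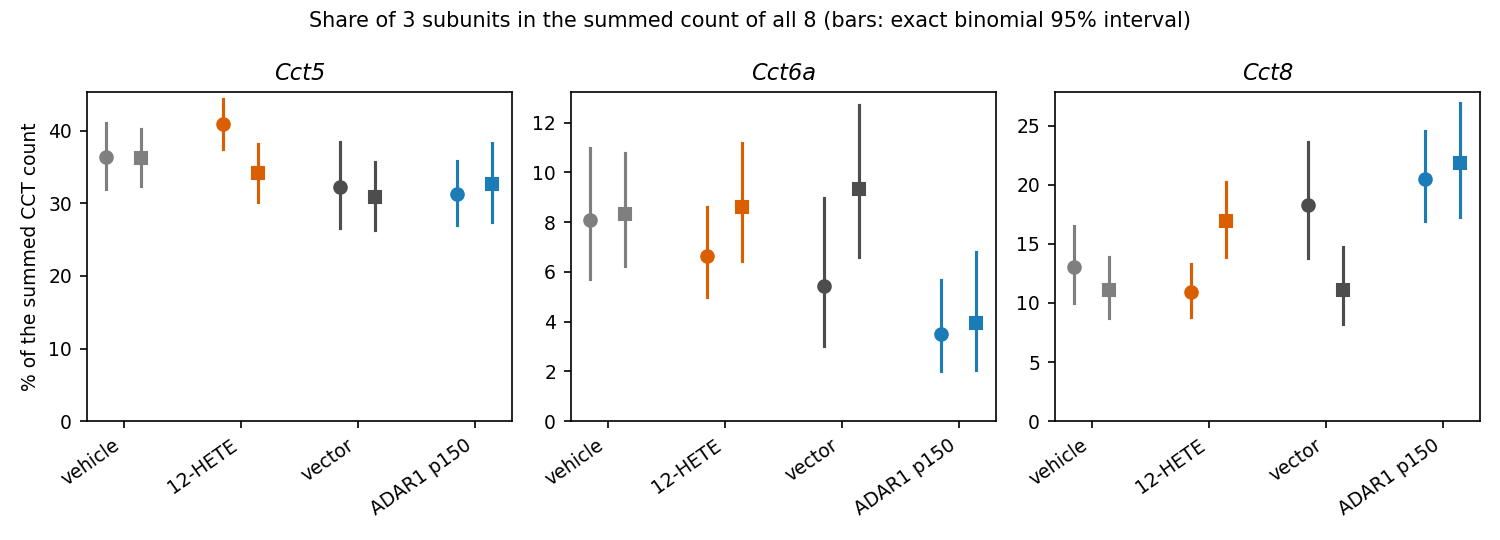
Percentage of the summed CCT count (vertical axes, from 0) contributed by Cct5, Cct6a and Cct8 in each library, with circles for the lower and squares for the higher replicate number and exact binomial 95% intervals as bars. Cct6a is at 3.52% and 3.96% with ADAR1 p150 and Cct8 at 20.5% and 21.8%.

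The effects of ADAR1 p150 and 12-HETE did not differ past the threshold for any subunit. An interaction term (the ADAR1 p150 effect minus the 12-HETE effect) passed for 0 of 8, against 15% of all genes tested, also 0 with DESeq2, and 1 of 8 had an unadjusted p under 0.05. That subunit was Cct6a, with a difference of -1.19 on the log2 scale (95% interval -2.13 to -0.25) and an edgeR adjusted p of 0.0787. Without vector replicate 1 Cct6a passed. Cct3 had -0.68 (-1.42 to 0.062), and the remaining 6 lay between -0.42 for Cct7 and 0.16 for Cct4.

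The 2 controls, which differ in the vector and the vehicle and come from separately numbered experiments, were compared to see the level from which each effect started. All 8 subunits had fitted values below 0 for vector against vehicle, from -0.34 for Tcp1 to -0.83 for Cct5, where 51% of all genes tested were below 0. Of the 8, 0 passed edgeR's quasi-likelihood test after adjustment and 0 passed with DESeq2, where edgeR called 0.116% of all genes, and 4 of 8 (Cct3, Cct4, Cct5 and Cct6a) had an unadjusted p under 0.05, against 11.5% of all genes. Groups did not overlap for 5 of 8 (Cct3, Cct4, Cct5, Cct7 and Cct8), against 43.7% of all genes, and these 5 were lower with vector, against 23.3% of all genes that were lower without overlap. The median over the 8 was -0.56, beside -0.0083 over all genes tested. Medians of related lists were also below 0 for actin and tubulin (-0.637), other clients (-0.522), and endoplasmic reticulum (-0.453), cytosolic (-0.431) and mitochondrial chaperones (-0.229). They were above 0 for the lists with 1 or 2 genes tested. These were tubulin cofactors (0.105), CCT paralogues (0.121), prefoldin (0.164) and phosducin-like co-chaperones (0.533).

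Cct5 came closest to a call, at 1.77-fold lower with vector (log2 fold change -0.83, 95% interval -1.20 to -0.45) and an edgeR adjusted p of 0.058. It passed in 4 of 6 alternatives (edgeR adjusted p-values of 0.0213 to 0.0455), not with DESeq2 (0.995) or with 10 counts required in every library (0.0686). It was further from the threshold without vector replicate 1 (-0.62, 0.628) and without vehicle replicate 5 (-0.60, 0.784), all by edgeR. It passed without vector replicate 2 (-1.05, edgeR adjusted p = 0.00266) and without vehicle replicate 4 (-1.0, 0.0171). Vector, vehicle and experiment cannot be told apart in this comparison.

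Most subunits differed in the same direction between replicates of a group. In vehicle, replicate 5 was above replicate 4 for 8 of 8 subunits, with a median log2 difference in CPM of 0.395, where 50.6% of all genes tested were higher in replicate 5. In 12-HETE, replicate 4 was above replicate 5 for 5 of 8, against 47.9% of all genes, and the median difference (replicate 5 minus 4) was -0.352. In vector, replicate 2 was above replicate 1 for 7 of 8, against 52.8% of all genes, at a median of 0.701. In ADAR1 p150, replicate 1 was above replicate 2 for 7 of 8, against 48.4% of all genes, at a median of -0.5 (replicate 2 minus 1). The medians over all genes tested were close to 0 in all 4 groups, between 0.0067 and 0.0266.

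For the CCT sum, replicates were further apart than the treated and control means in both experiments. The normalised sum of the 8 subunits differed 1.31-fold between the vehicle replicates (95% counting interval 1.16 to 1.48) and 1.28-fold between the 12-HETE replicates (1.15 to 1.43). It differed 1.44-fold between the vector replicates (1.22 to 1.69) and 1.39-fold between the ADAR1 p150 replicates (1.2 to 1.62). Genes as a whole also differed between replicates by more than counting noise. The subunits that went against the majority were Cct8 in vector, Cct3 in ADAR1 p150, and Cct3, Cct6a and Cct8 in 12-HETE.

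The chaperone and client lists with 5 or more genes tested mostly had median replicate differences of the same sign. The medians in vehicle, 12-HETE, vector and ADAR1 p150 were 0.371, -0.391, 0.254 and -0.421 for actin and tubulin, and 0.355, -0.147, 0.0778 and -0.324 for cytosolic heat shock chaperones. They were 0.223, -0.101, 0.431 and -0.535 for mitochondrial chaperones, and 0.0781, -0.265, 0.371 and -0.257 for other clients. Endoplasmic reticulum chaperones had the same signs except in 12-HETE, where their median was 0.123. The lists with 1 or 2 genes tested had other signs in at least some groups. Tubulin cofactors were opposite to the subunits in every group, at -0.221, 0.0786, -0.192 and 0.0795. Medians were -0.0129, 0.0933, 0.294 and 0.174 for prefoldin and -0.628, 0.0133, 1.14 and -0.963 for phosducin-like co-chaperones. For the paralogues they were 0.0225, 0.276, -0.82 and 0.0949.

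**Figure D4:**
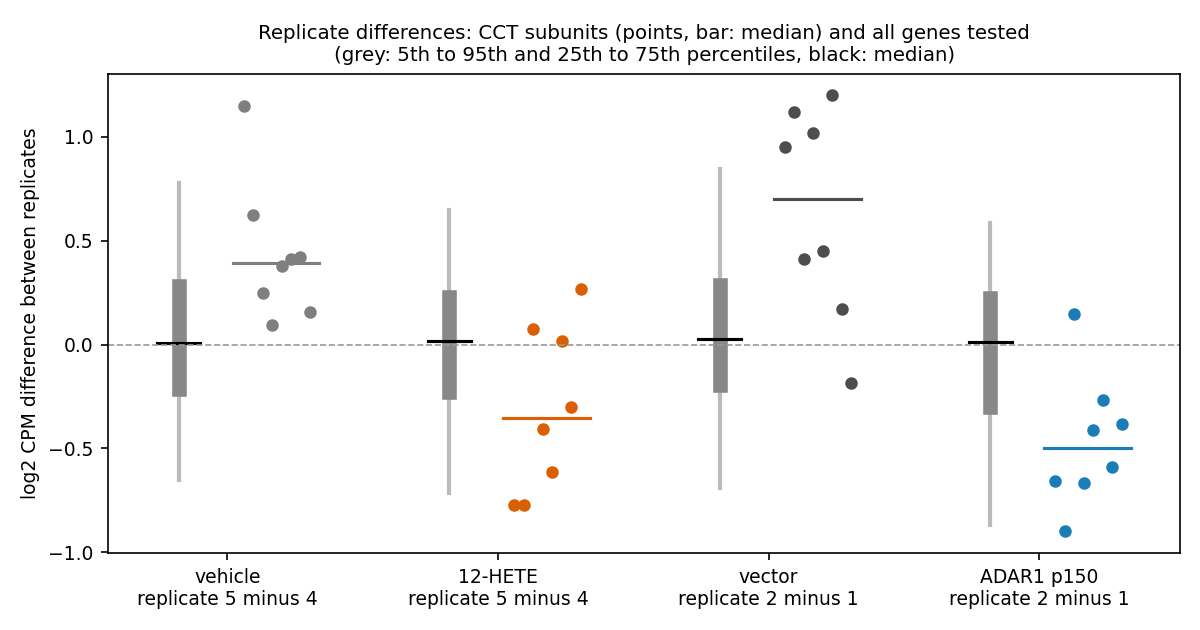
Difference in log2 CPM between the replicates of each group (vertical axis), with points for the 8 CCT subunits beside the 5th to 95th and 25th to 75th percentiles (grey) and median (black) of the 6901 genes tested. The subunit medians are 0.395, -0.352, 0.701 and -0.5 in vehicle, 12-HETE, vector and ADAR1 p150, while the medians of all genes lie near 0.

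Across the 8 libraries, log2 CPM of every pair of subunits correlated positively (28 of 28 pairs, median Pearson r of 0.726, from 0.189 to 0.96). These are descriptions over 8 libraries that share groups and normalisation, and no pairs of other genes were set beside them. The highest r was that of Cct3 and Cct6a, and the lowest involved Cct8. Among 1269 genes whose mean count reached 100, the 3 whose levels followed the mean of the subunits most closely were Eif4g1 (r of 0.976), a scaffold of the translation initiation complex, Tubb5 (0.968), a beta-tubulin, and Rpl18 (0.965), a protein of the large ribosomal subunit. Tubb5 had counts of 114 and 168 in the vehicle libraries, 218 and 153 in 12-HETE, 70 and 88 in vector and 120 and 72 in ADAR1 p150.

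Actin and tubulin are the main clients. Of 15 genes of this list, 12 were tested, and 5 rose and 0 fell with 12-HETE, where 29.3% of all genes changed in either direction. The median log2 fold change was 0.63. Tubb2a, a beta-tubulin, had counts of 3 and 18 in vehicle against 34 and 33 in 12-HETE, and rose by 1.48 on the log2 scale (edgeR adjusted p = 0.00848). Tuba1b, an alpha-tubulin, had 67 and 65 counts in vehicle against 114 and 201 in 12-HETE, and rose by 1.07 (edgeR adjusted p = 0.000138). The lowest values were those of Actg1 (0.19, edgeR adjusted p = 0.468) and Tubb5 (0.20, 0.408), which did not pass. With ADAR1 p150, 3 of the 12 rose and 0 fell, a share near the 25.6% of all genes called, with a median of 0.52. Tuba1c rose by 1.46 (edgeR adjusted p = 5e-05), from 39 and 29 counts with vector to 144 and 86, while Tubb2a had 1.22 and did not pass (0.0633). Tubb6 and Tuba1a were lowest at -0.16 and -0.09, and did not pass. In vector against vehicle the list had a median of -0.64, and 1 of 12, Actb, fell, by 0.75 (edgeR adjusted p = 0.0366).

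Among 9 other clients tested of 14, which include cell cycle regulators and WD repeat proteins, 0 passed with either treatment. Of all genes, 29.3% passed with 12-HETE and 25.6% with ADAR1 p150. The mean counts of these clients were low, between 10.6 and 67.9, which limits what can be detected. The co-chaperones that hand proteins to CCT were mostly under the minimum count. Of 6 prefoldin subunits only Pfdn2 was tested, at -0.19 with 12-HETE and -0.07 with ADAR1 p150, and it did not pass. Of 4 phosducin-like co-chaperones only Pdcl3 was tested, at 0.84 and 0.15, and it did not pass either. Of the tubulin cofactors, which assemble tubulin after CCT has folded it, 2 of 6 were tested. Tbce rose with 12-HETE by 0.59 (edgeR adjusted p = 0.00161), from 121 and 105 counts to 204 and 184.

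Counts for the other chaperone systems with 12-HETE stand beside the 29.3% of all genes called, and their difference from CCT was not tested. Of 14 cytosolic heat shock chaperones tested, 5 rose and 0 fell. Dnaja1, an Hsp40 partner of Hsp70, had counts of 23 and 34 in vehicle against 78 and 58 in 12-HETE, and rose by 1.06 (edgeR adjusted p = 0.00124). Chordc1, an Hsp90 co-chaperone, rose by 1.14 (edgeR adjusted p = 0.0379). Hspb1, a small heat shock protein, had -1.18 and Hsp90ab1, the constitutive Hsp90, had 0.02, and neither passed. Of 5 mitochondrial chaperones, 2 rose with 12-HETE, among them Hspe1, the lid of the mitochondrial chaperonin Hsp60, by 1.03 (edgeR adjusted p = 0.000949), from 30 and 36 counts to 81 and 73. Of 8 chaperones of the endoplasmic reticulum, 3 rose, with Pdia6, a protein disulfide isomerase, highest at 1.03 (edgeR adjusted p = 0.0154). With ADAR1 p150 the share of all genes called was 25.6%. Of the 14 cytosolic chaperones 1 was called, Ahsa1, an activator of the Hsp90 ATPase, which fell by 0.72 (edgeR adjusted p = 0.0301). None of the 5 mitochondrial or 8 endoplasmic reticulum chaperones passed. The heat-inducible Hspa1a and Hspa1b were at 0 counts in all 8 libraries. Over these lists and the paralogues together, 17 genes were called with 12-HETE by edgeR and 5 by DESeq2, and 4 and 1 with ADAR1 p150.

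**Figure D5:**
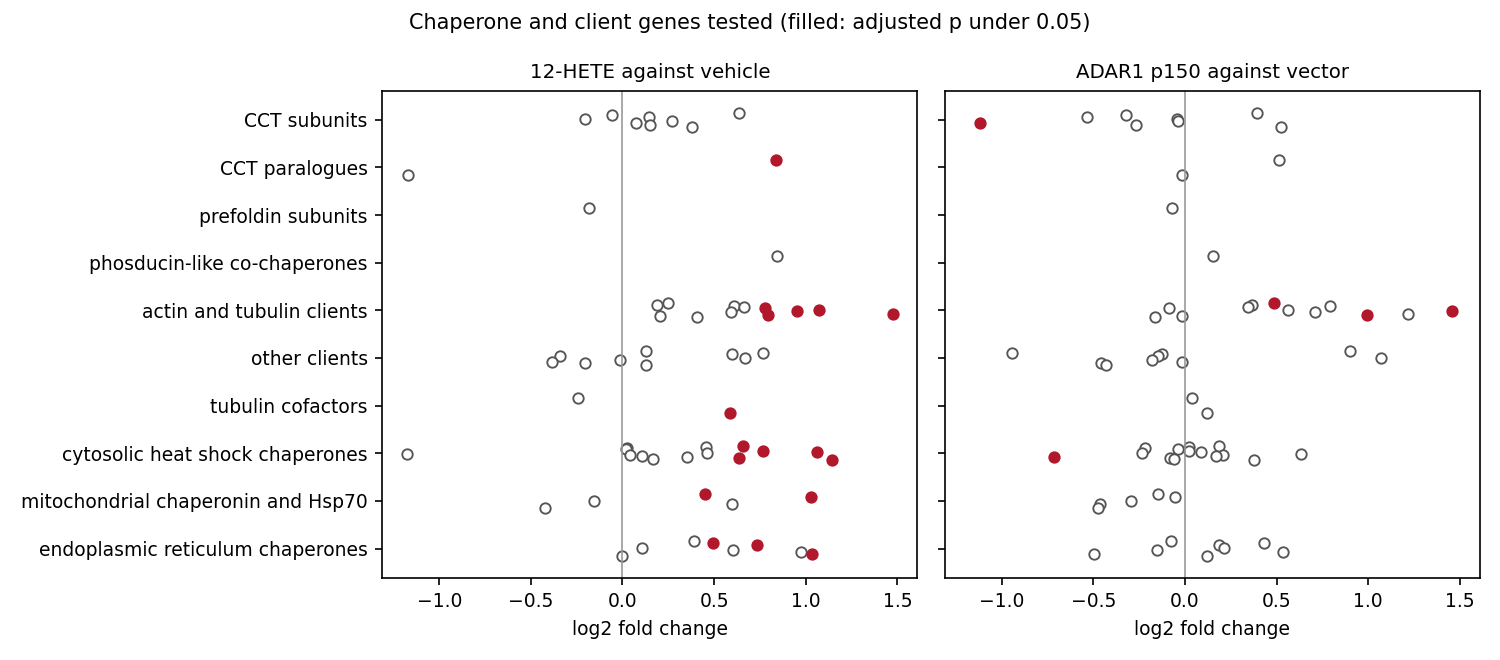
Log2 fold change (horizontal axes) of each tested gene in the CCT list and 9 related lists, with 12-HETE (left) and ADAR1 p150 (right), filled where the edgeR adjusted p is under 0.05. With 12-HETE 0 of 8 CCT subunits, 5 of 12 actin and tubulin genes and 5 of 14 cytosolic heat shock chaperones are filled, and with ADAR1 p150 the CCT list has 1 filled point, Cct6a.

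The paralogues of the subunits were counted separately, so that reads shared with them may be split. Cct6b, a paralogue of Cct6a known from testis, had counts of 20 and 22 in the vehicle libraries, 45 and 41 in 12-HETE, 29 and 12 in vector and 36 and 36 in ADAR1 p150. It rose with 12-HETE by 0.84 on the log2 scale (edgeR adjusted p = 0.0393), but did not pass with DESeq2 (0.82, adjusted p = 0.269) or when any of the 4 libraries was left out (edgeR adjusted p-values of 0.107 to 0.152). With ADAR1 p150 it had 0.51 (95% interval -0.14 to 1.17) and did not pass, except without vector replicate 1 (1.31, edgeR adjusted p = 0.0274). Cct8l1, related to Cct8, had at most 17 counts in a library and did not pass with either treatment. The pseudogenes Cct3-ps1 and Tcp1-ps1 had 0 counts in all 8 libraries.

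For 4 subunits, exons overlap those of a gene on the opposite strand in GENCODE M21, and whether the counting used strand is not given in the sources used here. Without strand, reads from overlapping exons cannot be told apart. The shared bases were 452 for Cct6a and Psph, 571 for Tcp1 and Acat3, 141 for Tcp1 and Mrpl18, 214 for Cct7 and Pradc1, and 192 for Cct8 and Usp16. GENCODE M21 also classes Cct6a as a processed transcript, where it classes the other 7 subunits as protein coding.

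Psph, the last enzyme of serine synthesis, had counts of 925 and 916 in the vehicle libraries, 1349 and 1243 in 12-HETE, 1028 and 888 in vector and 860 and 855 in ADAR1 p150, far more than Cct6a in every library. With ADAR1 p150 it fell by 0.45 (edgeR adjusted p = 0.000752), so that both genes of this pair were called lower. With 12-HETE Psph rose by 0.30 (edgeR adjusted p = 0.019), where Cct6a had 0.07. This call was lost with DESeq2 (0.11), with RLE factors (0.0608) and without any of the 4 libraries (log2 fold changes of 0.201 to 0.328). Over the alternatives other than leaving out a library, which include DESeq2, the adjusted p of Psph with 12-HETE ranged from 0.012 to 0.257. The fall with ADAR1 p150 was lost without vector replicate 1 (-0.32, edgeR adjusted p = 0.0655). Whether reads were shared between them was not tested.

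The other 4 partners rose with 12-HETE, while the subunits they overlap did not pass. Acat3, an acetyl-CoA acetyltransferase, had 972 and 900 counts in vehicle against 1835 and 1732 in 12-HETE, and rose by 0.74 (edgeR adjusted p = 2.8e-07). Mrpl18, a mitochondrial ribosomal protein, had 693 and 627 counts in vehicle against 1213 and 1169 in 12-HETE, and rose by 0.66 (edgeR adjusted p = 2.1e-06). Tcp1, which both overlap, had 16, 39, 64 and 34 counts in the same libraries. Pradc1 rose by 1.23 (edgeR adjusted p = 5.2e-05) and Usp16, a ubiquitin-specific protease, by 0.80 (0.00205), beside 0.15 for Cct7 and 0.38 for Cct8. With DESeq2 the adjusted p of Usp16 was 0.0606. None of these 4 passed with ADAR1 p150. The median log2 differences of the 5 partners between replicates were -0.156, 0.0191, -0.0816 and 0.161 in vehicle, 12-HETE, vector and ADAR1 p150.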

How the data were processed

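RNA-seq was analysed for 8 libraries of EO771 cells, 2 each of vehicle, 12-HETE, vector and ADAR1 p150, with groups and replicate numbers taken from the sample labels. The authors deposited raw gene counts, which were used as they stand. According to the methods of the study, alignment to GRCm38 used STAR, and fragments were counted with featureCounts. The labels and the methods name different extraction and library kits, and whether counting was stranded is not given in the sources used here. Duplicate removal with prinseq is described beside the editing analysis, and whether the deposited counts followed it is not given in the sources used here. Totals were 1101767 to 1537037, and 3 counts, the limit that a count of 0 allows, came to 2.11 to 2.74 CPM. Intervals and this limit cover counting error only.

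A mean count of 10 was required, which 6901 of 49997 genes reached. All 8 libraries were fitted together with a coefficient per group by edgeR 4.0.16 (limma 3.58.1, R 4.3.3), with TMM factors, the two-sided quasi-likelihood test and Benjamini-Hochberg adjustment over all 6901 genes. The threshold for a call was an adjusted p of 0.05. CPM are counts scaled to a common TMM-adjusted total. Positions, exon lengths and overlaps are from GENCODE M21 on GRCm38, and promoter sequences from RefSeq on GRCm38.p6, which held 7 of the 8 subunits. Figures were drawn with Python 3.11.15 and matplotlib 3.10.9. On simulated counts for 6901 genes, 194 of 200 genes changed 4-fold in 12-HETE against vehicle were called, with 2 false calls. The simulation gave every gene the same spread and left the genes with the lowest counts unchanged. Recovery of smaller changes was not simulated.

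The subunits, the lists of chaperones, clients and markers, and the tests were chosen with earlier results of these data known. Named genes are the 8 subunits, Adar, genes whose exons overlap a subunit on the opposite strand, the paralogues, the 3 genes most like the mean of the subunits, and in each list at most the 2 highest and 2 lowest log2 fold changes per treatment. Actb in vector against vehicle was named after its value was seen, as were AY036118, the markers, and Hspa1a and Hspa1b. As alternatives, results were recomputed with DESeq2 1.42.0, with RLE factors, requiring 10 counts in each library, with no minimum, leaving out the RNAs AY036118, Rn7s1 and Rn7s2, a fit of the 4 libraries of a contrast, a 2-fold threshold, a replicate block, and leaving out each library. A crossed block, the calls without each library, and division by the longest transcript were added after seeing the data. The mean chi-square per gene between replicates was 1.39 to 1.71, above the 1 of sampling noise, and each library was counted as 1 sample. RNA editing was not analysed here.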

Additional observations from a re-analysis of the deposited data

Results flagged for a closer look

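The effects of 12-HETE and ADAR1 p150 differed for 3 of the 5 genes that overlap a CCT subunit on the opposite strand, by an interaction term in edgeR (quasi-likelihood F, Benjamini-Hochberg adjusted). The same term passed for 15% of all genes tested, and the 3 genes were picked because they passed it. For Psph, which overlaps Cct6a, the ADAR1 p150 effect minus the 12-HETE effect was -0.757 on the log2 scale (adjusted p = 0.000218), with 0.30 for 12-HETE, a call lost without any of its 4 libraries (adjusted p of 0.0515 to 0.343), and -0.45 for ADAR1 p150, a call lost without vector replicate 1 (0.0655). For Acat3 and Mrpl18, which overlap Tcp1, the differences were -0.64 (adjusted p = 0.00124) and -0.619 (adjusted p = 0.00177), with a rise with 12-HETE and no call with ADAR1 p150. Over the alternatives other than leaving out a library, the adjusted p-values were at most 0.00132 for Psph, 0.00464 for Acat3 and 0.00775 for Mrpl18. Leaving out a library gave differences of -0.885 to -0.615 for Psph, -0.732 to -0.533 for Acat3 and -0.717 to -0.516 for Mrpl18. Tcp1 itself had a difference of -0.25 and Cct6a of -1.19, and neither passed. With 2 libraries per group no library was examined for standing apart within its group.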

How the results depend on the processing

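The number of CCT subunits called was the same as reported under most alternatives. With ADAR1 p150 it was 0 with DESeq2, where Cct6a was lost. For vector against vehicle it was 1 (Cct5) with RLE factors, with no minimum, without AY036118, Rn7s1 and Rn7s2, and in a fit of the 4 libraries. Over the other chaperone and client lists and the paralogues together, 12-HETE gave 17 calls, 6 with the 2-fold threshold and 5 with DESeq2, and ADAR1 p150 gave 4 calls, 1 and 1 under these. Leaving out each library gave 0 to 1 subunits called in each of the 4 contrasts. Median log2 fold changes of the subunits then ranged from -0.0158 to 0.277 with 12-HETE, where it was below 0 without vehicle replicate 4, from -0.437 to 0.263 with ADAR1 p150, from -0.634 to 0.014 for the difference and from -0.989 to -0.294 for vector against vehicle. A group left with 1 library was assumed to vary like the others. The cause of these changes was not tested.

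The replicate numbers were not taken to pair libraries, since same-numbered libraries did not deviate together (correlations of -0.0798 in the 12-HETE and -0.114 in the ADAR1 p150 experiment). With the replicate block, Cct6a stayed called with ADAR1 p150 (-1.07, edgeR adjusted p = 0.0444), and no count of subunits changed, but the Cct6b call with 12-HETE was lost (edgeR adjusted p = 0.0596), as it was with no minimum (0.104) and without AY036118, Rn7s1 and Rn7s2 (0.0549). Over all genes the block moved the calls for 12-HETE from 2021 to 1788 and those for ADAR1 p150 from 1766 to 1507. The crossed block in the ADAR1 p150 experiment, chosen after seeing the data, gave 1 subunit called for the difference between the effects, and 1858 calls over all genes with ADAR1 p150. Vector and vehicle share no replicate number, so that no block was used for that comparison. Subunits with 12 to 40 counts in a library limit what can be detected: for Cct2 and Tcp1 the 95% intervals spanned over 1.3 log2 units.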
